A study of Mus musculus with 6 samples.

Results

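The gene Egfr, which encodes the epidermal growth factor receptor, and the neighbouring genes of 4 of its ligands, Epgn, Ereg, Areg and Btc, were followed in chromatin accessibility data (ATAC-seq) from NMuMG cells. Members were all accessible regions that overlapped 1 of 2 windows of the mouse build mm9. The Egfr window ran on chromosome 11 from 16550000 to 16920000, and the ligand window on chromosome 5 from 91400000 to 91860000. The windows held 39 of the 42310 regions in DMSO, 19 around Egfr and 20 around the ligand genes. They held 23 of 25922 regions after 6 h of BRM014, with 11 and 12 in the Egfr and ligand windows, and 42 of 38422 after 30 h, with 20 and 22.

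NMuMG is an established line of wild-type epithelial cells from normal mouse mammary gland. It was grown in serum with insulin and treated with the vehicle DMSO, with BRM014 for 6 h, or with BRM014 for 30 h. BRM014 inhibits Smarca4 and Smarca2, the ATPases that drive the SWI/SNF chromatin remodelling complexes. Each of the 3 groups had 2 biological replicates, but 1 peak list was made from both, so the spread between replicates was not measured and no test between treatments was made. The DMSO list is named for 30 h, and no vehicle list of 6 h was analysed here. The protocol in the labels also mentions TGFβ, which no sample's own label carries. The intervals given are 95% intervals for counting error only: Wilson for shares, and exact binomial for ratios of pileups.

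Egfr is a receptor tyrosine kinase that pairs with itself or with other ErbB receptors once a ligand binds, and signals through the MAP kinase and PI3 kinase pathways. Its ligands are made as membrane proteins and act after proteases cut them free. Amphiregulin, encoded by Areg, is needed for the growth of mammary ducts at puberty, where it acts through Egfr in the stroma. Epiregulin (Ereg) and betacellulin (Btc) also bind Erbb4, and epigen (Epgn) is a ligand of low affinity for Egfr. In RefSeq's annotation Epgn, Ereg, Areg and Btc follow each other on chromosome 5 with no other protein-coding gene between them, Mthfd2l before and Parm1 after them. Egfr stands between Sec61g and Fbxo48.

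The sequences upstream of the starts of 3 members are shown because they show how unlike the promoters of the receptor and of 2 of its ligands are. They are the 250 bases before the annotated start in RefSeq's build GRCm38.p6, all from the plus strand, and 4 of the 5 members, all but Ereg, had an entry. Capitals mark the TATA box motif, with letters TATAAA, and TGACGTCA (the full cAMP response element, CRE), searched on both strands. TGAGTCA, the AP-1 motif, was searched in the same way.
Egfr: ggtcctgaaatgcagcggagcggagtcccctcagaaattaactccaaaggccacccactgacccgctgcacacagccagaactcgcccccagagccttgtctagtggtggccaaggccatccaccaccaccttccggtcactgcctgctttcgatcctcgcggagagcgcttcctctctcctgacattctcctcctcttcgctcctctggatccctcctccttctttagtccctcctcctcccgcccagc
Epgn: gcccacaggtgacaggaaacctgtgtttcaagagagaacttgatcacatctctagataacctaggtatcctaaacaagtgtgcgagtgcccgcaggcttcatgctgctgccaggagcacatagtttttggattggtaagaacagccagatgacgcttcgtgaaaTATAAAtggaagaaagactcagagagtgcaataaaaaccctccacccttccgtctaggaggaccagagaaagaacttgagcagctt
Areg: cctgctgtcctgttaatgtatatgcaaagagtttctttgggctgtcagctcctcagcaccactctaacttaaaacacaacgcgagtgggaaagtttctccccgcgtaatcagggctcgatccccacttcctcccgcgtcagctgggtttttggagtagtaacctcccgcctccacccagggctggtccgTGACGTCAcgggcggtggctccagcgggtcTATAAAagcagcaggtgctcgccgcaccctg
The Areg sequence held TGACGTCA at 61 and TATAAA at 31 bases before the start, counted to the first base of the motif. That of Epgn held TATAAA at 86 bases and no full CRE. The Egfr and Btc sequences held none of the motifs, and none of the 4 held TGAGTCA. Among 32851 promoter sequences of this length in the table, 12.4% held TATAAA, 1.55% held TGACGTCA and 4.46% held TGAGTCA. The CG dinucleotide occurred 15 times in the Areg sequence, 11 times in that of Egfr, 5 times in that of Epgn and 4 times in that of Btc, against a median of 6.00 over the table. Since the regions have mm9 positions and the sequences come from another build, no region was assigned to these promoters or to an exon or intron, and regions are named by mm9 position.

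In DMSO the members were near the whole list in fold enrichment and width, and higher in median -log10 q and in median reads at the summit. Their fold enrichment, the caller's ratio of reads piled up at a summit to the background around it, ran from 4.88 to 29.3 with a median of 12.7, against 13.0 over all DMSO regions. The median -log10 q was 121 (24.4 to 580) against 91.7, the median number of reads at the summit 155 against 129, and the median width 685 bp against 677 bp. A single summit was recorded in 18 of the 39 (46.2%, 31.6 to 61.4%), against 49.0% of all DMSO regions. The median of the 37 gaps between neighbouring regions inside the windows was 11.5 kb, against 16.3 kb over all DMSO regions. The lower quartiles were 5.39 and 5.90 kb. Gaps that cross a window limit were left out, which favours short gaps, so the medians are not like for like. In the Egfr window all regions but 1 lay between 16583447 and 16766954, and the last, at 16.851 Mb, followed a gap of 83.9 kb. In the ligand window the largest gap, 82.0 kb, lay before the last region, at 91.831 Mb. No window limit cut through a DMSO region. The nearest DMSO regions outside were 57.9 kb before and 139 kb after the Egfr window, and 39.0 kb before and 86.3 kb after the ligand window.

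Of the 39 DMSO regions, 17 were missing from the BRM014 list at 6 h, meaning that no region there overlapped them, a share of 43.6% (29.3 to 59.0%), against 43.6% of all DMSO regions. At 30 h 5 were missing, 12.8% (5.60 to 26.7%), against 26.1%. Missing at both times were 4, 10.3% (4.06 to 23.6%), against 23.7%, and missing at 6 h only were 13, 33.3% (20.6 to 49.0%), against 19.9%. The share missing at 6 h was that of the whole list. The share missing at both times was lower than over the whole list and the share missing at 6 h only was higher. The values of the whole list lay just outside the intervals. These are not separate results, since the 4 and the 13 regions make up the 17 missing at 6 h. The intervals take neighbouring regions as independent, and whether the members differ from the whole list was not tested. Neither difference held with all lists cut to 25922 regions. Missing at both times were then 3 of 24 members (12.5%, 4.34 to 31.0%), against 14.9%. Missing at 6 h only was 1 of 24 (4.17%, 0.739 to 20.2%), against 8.15%. The value for 6 h only under this setting was added after the data were seen. Stronger regions were missing less often: over all DMSO regions 68.0% of the lowest decile of -log10 q were missing at 30 h, and 0.520% of the highest decile. Among the members the median DMSO -log10 q was 176 for the 21 called at both times, 48.8 for those missing at 6 h only and 29.3 for those missing at both times, against 169, 59.4 and 40.7 over all DMSO regions. The part of the members' higher median -log10 q in their 30 h share was not tested. At 6 h 8 of 19 regions were missing around Egfr and 9 of 20 around the ligands. Among regions with a score of 1000 these were 1 of 12 (8.33%, 1.49 to 35.4%) and 6 of 16 (37.5%, 18.5 to 61.4%), and with lists of equal length 1 of 12 and 3 of 12 (25.0%, 8.89 to 53.2%). At 30 h 1 of 19 was missing around Egfr (5.26%, 0.935 to 24.6%) and 4 of 20 around the ligands (20.0%, 8.07 to 41.6%), and these intervals overlap widely.

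**Figure D1:**
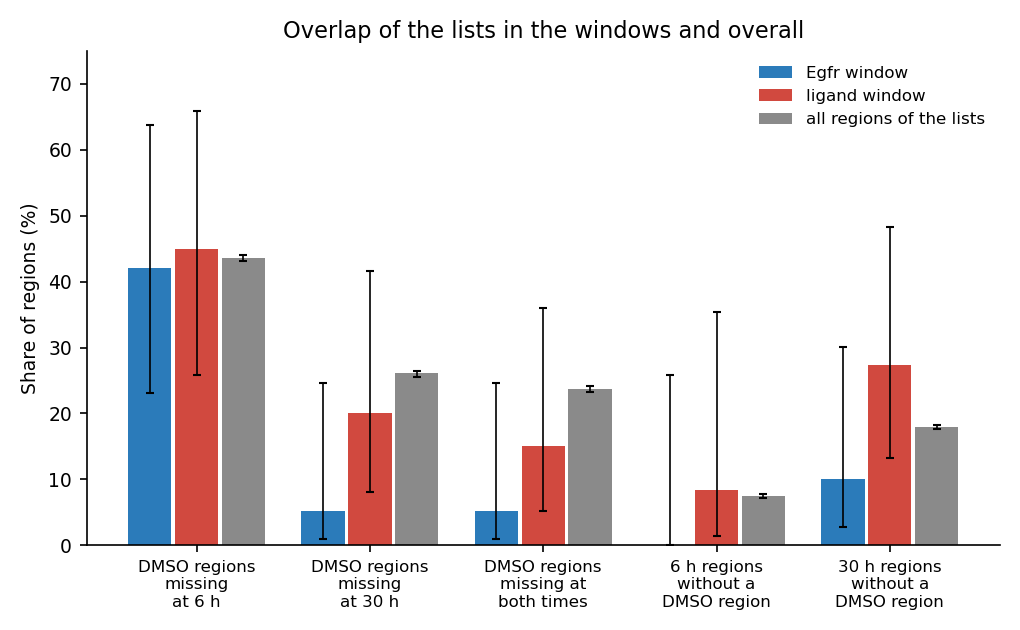
Share of regions, in percent, that had no overlapping region in the other list, for the Egfr window (blue), the ligand window (red) and all regions of the lists (grey), with 95% Wilson intervals as error bars. At 6 h the windows stand at 42.1% and 45.0% beside 43.6% of all DMSO regions, and at 30 h at 5.26% and 20.0% beside 26.1%.

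The lists differ in depth, and it was not tested whether entries were also filtered, for example on agreement between the replicates. A missing region is therefore not shown to be closed. The lowest local background of a list, recovered from the deposited values and taken as its genome average, was 63.0% of the DMSO value at 6 h and 80.7% of it at 30 h. The number of reads over each summit (the pileup) was recovered in the same way and scaled by these percentages to give the pileup expected in a treated list. The ratio of the pileup found to that expected was then taken for regions called in that list. Over all DMSO regions called, its median was 0.855 at 6 h and 0.985 at 30 h. The ratio varied with the strength of the region. Weak regions are called only where their pileup is high, and the part of this in the trend was not tested. The median ratio at 6 h was 1.47 in the lowest, 0.760 in the third highest and 0.831 in the highest decile of DMSO pileup. Ratios are therefore set beside these medians.

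Among members called at 6 h the median ratio was 0.632 in 22 regions, and 18 of the 22 lay below the median of all regions called (81.8%, 61.5 to 92.7%), against 50% by construction. As many, 18 of 22, lay below the median of regions of their own decile of DMSO pileup, again against 50%. In the lowest 25.0% of all ratios were 10 (45.5%, 26.9 to 65.3%). At 30 h the median ratio was 1.05 in 34 regions, 16 of the 34 lay below the median of all (47.1%, 31.5 to 63.3%) and 10 in the lowest 25.0% (29.4%, 16.8 to 46.2%). Thus most members still called at 6 h had a lower ratio of found to expected pileup than the median region called, and at 30 h they did not. This concerns the pileup relative to DMSO, not its rank within the 6 h list. Of the 21 called at both times, 20 had a higher scaled pileup at 30 h than at 6 h, against 70.3% of all such regions. The exception was the ligand region at 91.539 Mb. With the lists scaled by the summed pileups of their shared regions instead, 17 of the 21 were higher at 30 h, against 56.6%. These counts against all regions, and those by decile, were chosen after the data were seen. That scaling raises every ratio by 0.29 at 6 h and 0.13 at 30 h on the log2 scale and leaves the order of the regions as it is.

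The receptor is described first. The strongest region of the Egfr window lay on chromosome 11 from 16700498 to 16701103 and had a single summit. Its summit pileup was 761 reads in DMSO, 115 at 6 h and 385 at 30 h, or 183 and 477 at the depth of the DMSO list. The region was highest in DMSO, lowest at 6 h and between them at 30 h. The ratio to the expected pileup was 0.240 at 6 h (0.195 to 0.292) and 0.627 at 30 h (0.553 to 0.709). A lower ratio was found in 1.96% of all DMSO regions called at 6 h, and the median ratio of its decile of DMSO pileup was 0.831. Its -log10 q was 580, 65.7 and 267 in the 3 lists.

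A second strong region of the window was no lower after treatment than expected from the depth of the lists. The region from 16850852 to 16851710, past the long gap, had a summit pileup of 507 reads in DMSO, 360 at 6 h and 497 at 30 h, or 571 and 616 at DMSO depth. Its ratio was 1.13 at 6 h (0.982 to 1.29) and 1.21 at 30 h (1.07 to 1.38). It was 859 bp wide in DMSO, 1011 bp at 6 h and 898 bp at 30 h. In the plot of the Egfr window it stands at 507 to 616 in all 3 lists, while the tallest DMSO region falls to the height of its neighbours at 6 h.

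**Figure D2:**
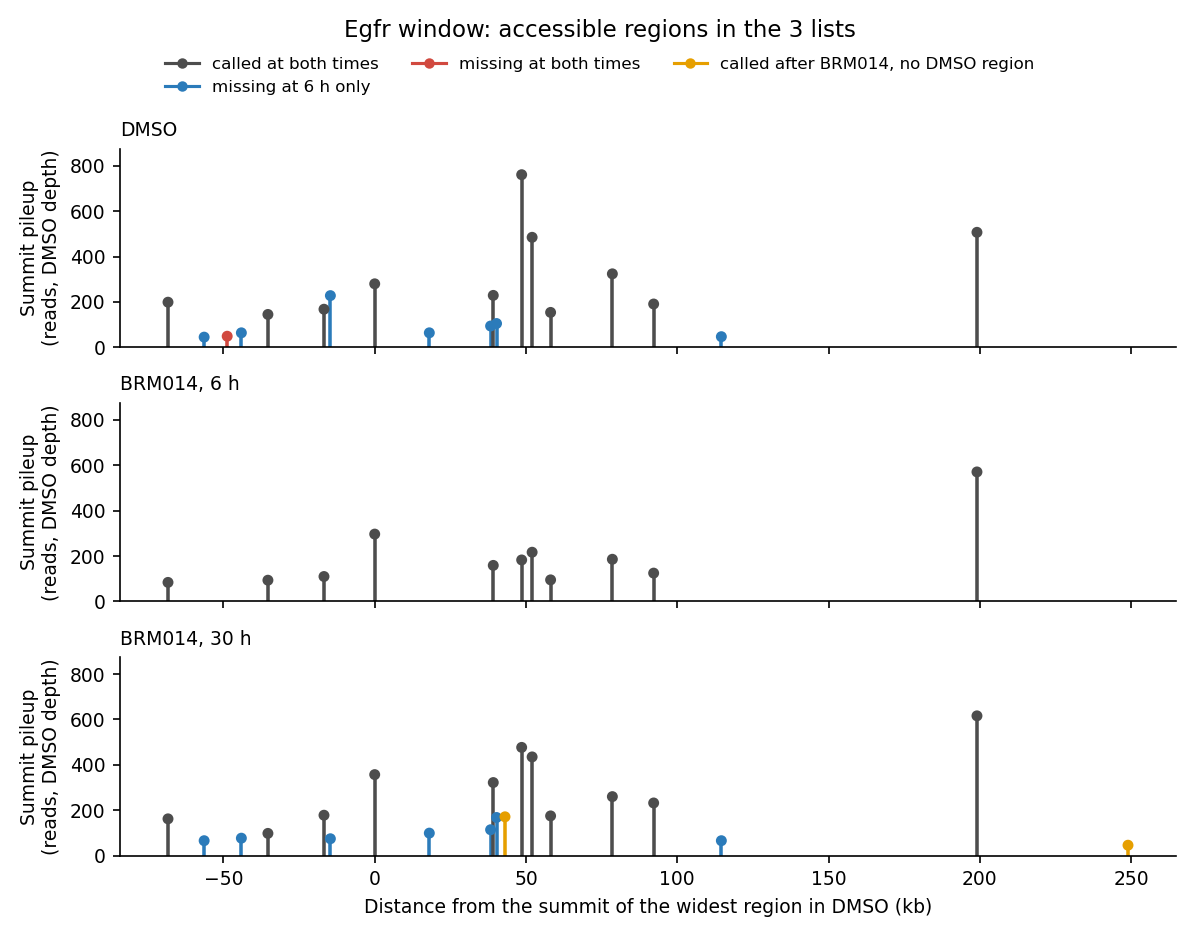
Summit pileup of each region in the Egfr window, in reads scaled to the depth of the DMSO list, for DMSO, 6 h and 30 h of BRM014, against the distance in kb from the main summit of the widest DMSO region. Each treated value is drawn at the DMSO summit of its region and coloured by class, and regions without a DMSO region are orange. The tallest DMSO region goes from 761 to 183 and 477, and the one farthest to the right among DMSO regions from 507 to 571 and 616.

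The widest region, from 16651857 to 16653219, had 4 summits in DMSO and was 1363 bp wide, 1237 bp at 6 h and 1335 bp at 30 h. Its highest pileup was 280 reads in DMSO, 187 at 6 h and 288 at 30 h, with ratios of 1.06 (0.876 to 1.28) and 1.27 (1.08 to 1.51). This and the region at 16.851 Mb were the only 2 of the 11 Egfr regions called at 6 h whose ratio was above the median of all.

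The other regions among the 5 strongest were lower at 6 h. The region from 16703809 to 16704520 had 485 reads in DMSO, 137 at 6 h and 351 at 30 h, with ratios of 0.448 (0.368 to 0.543) and 0.897 (0.779 to 1.03). The region from 16730395 to 16731133, with the highest fold enrichment of the window, 29.3, had 324, 117 and 210 reads, with ratios of 0.573 (0.460 to 0.710) and 0.803 (0.672 to 0.958). Their widths were 712 and 739 bp in DMSO, 483 and 538 bp at 6 h, and 715 and 727 bp at 30 h, so both narrowed at 6 h. The other 6 regions called in all 3 lists had ratios from 0.423 to 0.693 at 6 h and from 0.675 to 1.41 at 30 h.

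Of the 8 Egfr regions missing at 6 h, 7 were called at 30 h. Most were weak in DMSO, with summit pileups from 45 to 105 reads in 6 of the 7. These 6 were expected at 28.3 to 66.1 reads at 6 h, below which lay only 2.44 to 38.2% of all 6 h regions. At 30 h their ratios ran from 1.20 to 1.60, where weak regions that are called run high: the 30 h medians of the first 5 deciles of DMSO pileup were 1.44, 1.26, 1.14, 1.03 and 0.989. Against the median of its own decile, 1 of the 6 was lower, the region at 16.766 Mb at 1.40 against 1.44, and that at 16.596 Mb was close to it at 1.46. The seventh, named after its values were seen, lay from 16637058 to 16637797 and had 228 reads in DMSO. It was expected at 144 reads at 6 h, more than in 72.2% of all 6 h regions, and was not called. At 30 h it had 60 reads, a ratio of 0.326 (0.241 to 0.435), and was 282 bp wide against 740 bp in DMSO. In its decile of -log10 q 13.7% of all DMSO regions were missing at 6 h.

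The 1 Egfr region missing at both times was also the weakest of the window by -log10 q, 27.7. It lay from 16603216 to 16603805, with 49 reads and 2 summits in DMSO, and the nearest regions were 12778 bp away at 6 h and 4051 bp away at 30 h. In the lowest decile of -log10 q, where it belongs, 65.0% of all DMSO regions were missing at both times.

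Regions without a DMSO region numbered 0 of 11 at 6 h in the Egfr window, where the Wilson interval reaches up to 25.9%, and 2 of 20 at 30 h. The shares over the whole lists were 7.42% at 6 h and 17.9% at 30 h. The first of the 2, from 16695037 to 16695392, had a score of 1000, a pileup of 138 reads and a -log10 q of 56.8, above 42.3% of the 30 h list. It stood 2416 bp from the nearest DMSO region, between the region at 16.692 Mb and the strongest region at 16.700 Mb. Its fold enrichment was only 5.77, and the regions at 16.690 and 16.692 Mb were likewise at 5.29 and 5.51 in DMSO. The region between those, at 16.691 Mb, was stronger, at 12.1. The second, from 16900972 to 16901338, was weak, with 37 reads and a -log10 q of 26.9.

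The ligand window had its strongest region on chromosome 5 from 91711765 to 91712497, with a single summit. Its summit pileup was 424 reads in DMSO, 121 at 6 h and 406 at 30 h, or 192 and 503 at DMSO depth. It was thus lowest at 6 h, and highest at 30 h. The ratio was 0.453 at 6 h (0.367 to 0.556) and 1.19 at 30 h (1.03 to 1.36). Of all DMSO regions called, 14.9% had a lower ratio at 6 h and 73.9% at 30 h.

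Its 2 neighbours on the side of lower coordinates stayed low at 30 h. The region from 91703075 to 91703940 had 310 reads in DMSO, 48 at 6 h and 150 at 30 h. Its ratios were 0.246 (0.177 to 0.334) and 0.599 (0.490 to 0.731), and only 2.21% of all regions called had a lower one at 6 h. It narrowed from 866 bp to 418 bp and 442 bp.

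The region from 91691297 to 91692193 was the strongest DMSO region of either window that was missing at 6 h. It had 264 reads and a -log10 q of 245 in DMSO and was expected at 166 reads at 6 h, more than in 77.7% of all 6 h regions. The nearest 6 h region was 11244 bp away. At 30 h it was called with 39 reads, a ratio of 0.183 (0.127 to 0.257). Of all DMSO regions called at 30 h 0.275% had a lower ratio. In its decile of -log10 q 6.41% of all DMSO regions were missing at 6 h. The strongest region, the next but 1 along the chromosome, was above its expected pileup at that time, so neighbours within this stretch differed.

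**Figure D3:**
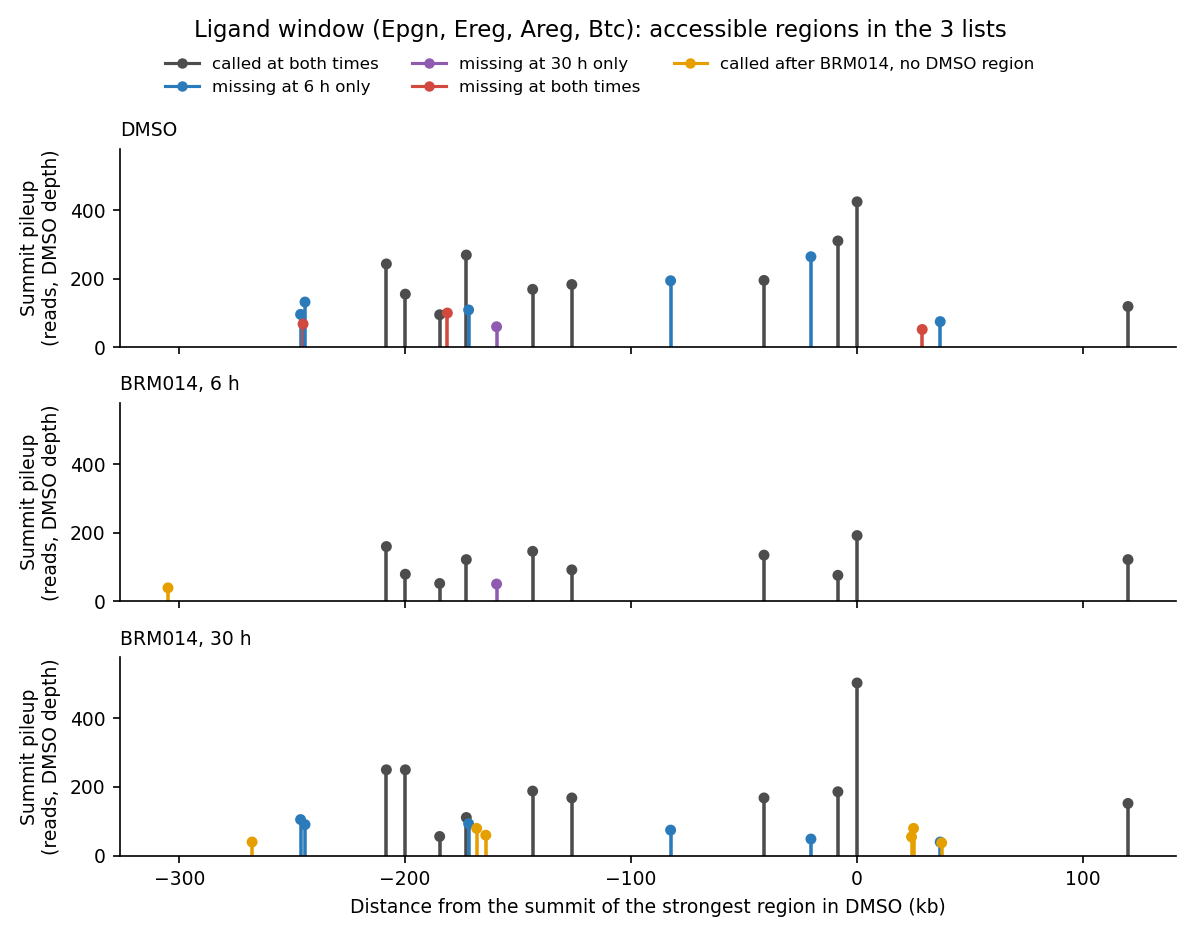
Summit pileup of each region in the ligand window, in reads scaled to the depth of the DMSO list, for DMSO, 6 h and 30 h of BRM014, against the distance in kb from the main summit of the strongest DMSO region. Colours give the class of each DMSO region, and orange marks regions without a DMSO region. The tallest region goes from 424 to 192 and 503, and its neighbours at lower coordinates stay below their DMSO height at 30 h.

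The remaining 2 of the 5 strongest were below their expected pileup in each list that called them. The region from 91538825 to 91539775, with 3 summits, had 269 reads in DMSO, 77 at 6 h and 90 at 30 h, with ratios of 0.454 (0.348 to 0.587) and 0.414 (0.323 to 0.528). The region from 91629437 to 91629897, which had gaps of 43.0 and 40.6 kb on its sides, had 194 reads and was not called at 6 h, where 122 were expected. At 30 h it had 60 reads, a ratio of 0.383 (0.282 to 0.514).

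Other ligand regions came back to or above their DMSO pileup. The region from 91512006 to 91512509, named after its values were seen, had 155 reads in DMSO, 50 at 6 h and 202 at 30 h, with ratios of 0.512 (0.365 to 0.709) and 1.61 (1.30 to 2.00), the highest 30 h ratio of the 10 ligand regions called in all lists. The region from 91503064 to 91504007 had 243, 101 and 202 reads, with ratios of 0.660 (0.518 to 0.835) and 1.03 (0.850 to 1.25). The least changed at 6 h were the regions from 91568062 to 91569089, at 0.864 (0.663 to 1.12), and from 91831363 to 91832275, at 1.03 (0.761 to 1.38). The first of these was the widest of the ligand window in DMSO, 1028 bp, as the region with 4 summits was around Egfr, and it kept widths of 989 and 1059 bp.

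Of the 9 ligand regions missing at 6 h, 6 were called at 30 h, 2 of them the strong regions at 91.629 and 91.691 Mb. The other 4 had 75 to 132 reads in DMSO and ratios from 0.529 to 1.10 at 30 h. Against the 30 h median of its own decile of DMSO pileup, that at 91.466 Mb was higher, at 1.10 against 1.03. Lower were those at 91.749 Mb (0.529 against 1.14), at 91.540 Mb (0.852 against 0.989) and from 91467482 to 91468065 (0.685 against 0.931). Missing at both times were 3. They lay from 91530459 to 91531143, with 100 reads and a -log10 q of 64.0, from 91740693 to 91741127, with 52 reads, and from 91466851 to 91467108, with 68 reads. The last had a 30 h region at a distance of 413 bp, and for the other 2 the nearest were 2881 and 3400 bp away. The region at 91.552 Mb, with 60 reads in DMSO, was the only 1 of the 39 that was called at 6 h, with 32 reads, and missing at 30 h.

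After treatment 1 of 12 regions at 6 h (8.33%, 1.49 to 35.4%) and 6 of 22 at 30 h (27.3%, 13.2 to 48.2%) had no DMSO region in the ligand window. With those of the Egfr window this gave 1 of 23 at 6 h, 4.35% (0.772 to 21.0%), and 8 of 42 at 30 h, 19.0% (9.98 to 33.3%), so neither total stood apart from the whole lists. The order of the windows at 30 h turned with lists of equal length, where 5 of 16 Egfr regions (31.2%, 14.2 to 55.6%) and 1 of 11 ligand regions (9.09%, 1.62 to 37.7%) had no DMSO region. Over all regions of the 30 h list this share was then 19.4%, inside both intervals. In the full lists, the ligand regions without a DMSO region all had a single summit, and their widths ran from 244 to 514 bp. The 6 h region, from 91406867 to 91407329, had 25 reads and was not called at 30 h. At 30 h the strongest lay from 91736921 to 91737292, with 64 reads, a score of 1000 and a -log10 q of 39.2, and a weaker one from 91736145 to 91736388, with 44 reads, stood beside it. Of the others, 1 lay from 91543667 to 91544032, with 64 reads, 1 from 91547713 to 91547982, with 48 reads, and 1 from 91444215 to 91444728, with 32 reads. The sixth, with 30 reads, began 118 bp past the end of the DMSO region at 91.749 Mb, so it is next to a region known from DMSO.

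Set side by side, the regions of both windows called in all 3 lists fell into similar ranges, from 0.240 to 1.13 at 6 h around Egfr and from 0.246 to 1.03 around the ligands. At 30 h the ranges were 0.627 to 1.41 and 0.414 to 1.61. In these regions the median ratio at 30 h was 1.06 around Egfr and 0.975 around the ligands. Over all members called at 30 h, weak regions included, the medians were 1.21 in 18 Egfr regions and 0.858 in 16 ligand regions, with the middle 50% of values at 0.836 to 1.37 and 0.572 to 1.10. The ranges overlap, and the difference between the windows was not tested.

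**Figure D4:**
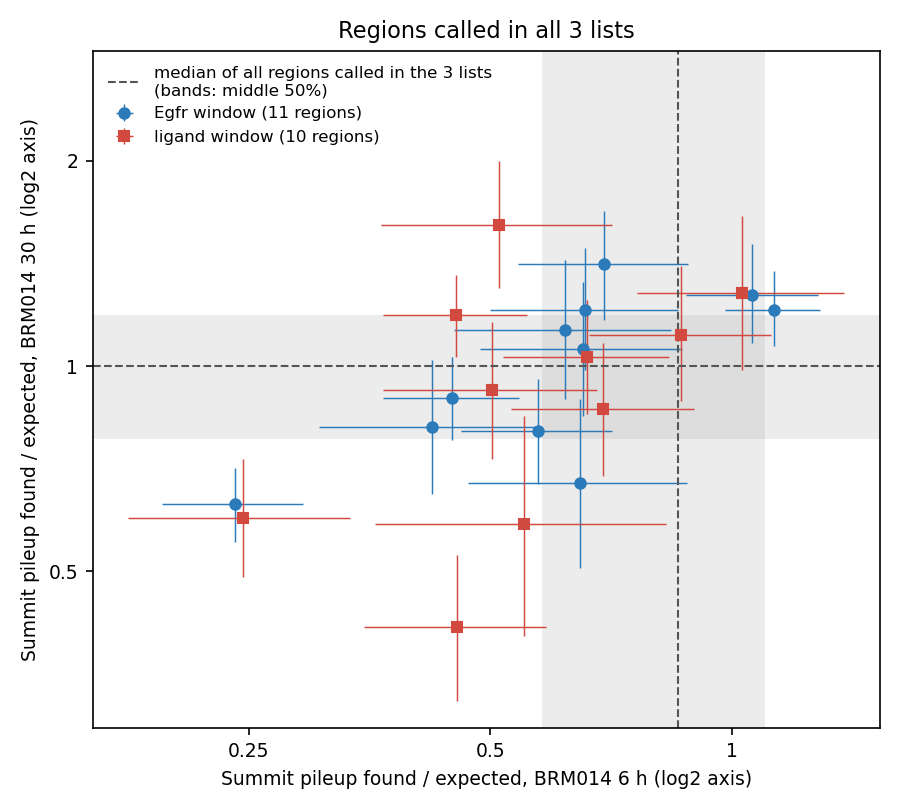
Ratio of the summit pileup found to that expected from DMSO at 30 h against 6 h, both on log2 axes, for the 11 Egfr (blue circles) and 10 ligand regions (red squares) called in all 3 lists, with exact 95% intervals for counting error. Dashed lines are the medians of all regions called in all 3 lists, 0.856 at 6 h and 1 at 30 h, and grey bands their middle 50%. Most points lie left of the vertical line, and the points farthest left are the region at 16.700 Mb and that at 91.703 Mb, at 0.240 and 0.246.

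Width followed the pileup in part. In the 22 members called at 6 h the width was a median of 0.816 of that in DMSO, against 0.915 over all regions with 1 counterpart, and in the 34 called at 30 h 0.951, against 0.953. The largest narrowing at 6 h was at the region from 16709911 to 16710888, from 978 bp to 319 bp, and it was 694 bp at 30 h. Its highest pileup was 154 reads in DMSO, 60 at 6 h and 141 at 30 h, with ratios of 0.619 (0.451 to 0.839) and 1.13 (0.896 to 1.43). Called width depends on depth as well as on accessibility, and these cannot be told apart in the lists.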

How the data were processed

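ATAC-seq of NMuMG cells was deposited as 3 peak lists, 1 per group of 2 replicates. Per the submitters' processing notes the authors used MACS2 2.1.2 and mm9; the aligner, read filters and caller options are not given in the sources used here. Every line of a list carried a score deposited by the authors (540 to 1000), the authors' fold enrichment at the summit (a ratio), deposited -log10 p and -log10 q values, and the summit offset. The score did not follow -log10 q. At 30 h the region at 16.617 Mb had a score of 577 with a -log10 q of 64.7, and that at 91.466 Mb 1000 with 50.1. In DMSO -log10 q went down to 0.365. How the score was made, and whether it served as a filter between replicates, was not tested. Entries that overlapped were merged per list, and a region counted as shared with an overlap of at least 1 bp. The pileup and local background were solved from each entry's deposited fold enrichment with its -log10 p, assuming the MACS2 defaults (pileup plus 1 over background plus 1, Poisson p). In 100% of entries a whole-number pileup gave the -log10 p back to within 0.001. The lowest background was 3.37 in DMSO, 2.12 at 6 h and 2.72 at 30 h. A region's pileup is the highest of its summits, and local background was not subtracted. Named regions were, per window, the 5 DMSO regions with the highest -log10 q, and up to 5 each of those missing at both times and those without a DMSO region. All other regions described singly were chosen after their values were seen. Members, lists and rules were chosen with earlier results of these data known. Python 3.11.15, pandas 2.3.3 and scipy 1.17.1 were used, and the recovery and overlap steps were tested on simulated data. ErbB pathway genes outside the windows were not analysed here, since no mm9 annotation was used. Intervals cover counting error only, and reads may include copies made by PCR.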

Additional observations from a re-analysis of the deposited data

How the results depend on the processing

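All alternatives below changed 1 choice at a time. Asking for 50% of a region to be covered gave 51.3% missing at 6 h and 15.4% at both times. Counting regions within 500 bp as shared gave 41.0% and 7.69%. The shares over all regions are not given for either rule, so it was not tested whether the members moved more than the whole list. Restricted to a score of 1000, 25.0% of DMSO regions were missing at 6 h and 3.57% at 30 h, the latter also the share missing at both times. New regions then made up 0% (0 of 13) at 6 h and 7.41% at 30 h. Over all regions of that score the 5 shares were 28.5%, 14.1%, 12.3%, 0.903% and 4.62%. At that score 21.4% of members and 16.2% of all regions were missing at 6 h only, an alternative added after the data were seen. Cutting every list to 25922 regions gave 16.7% missing at 6 h (4 of 24), against 23.1% over all, since it drops weak DMSO regions. It also gave 3 new regions of 23 at 6 h (13.0%) in place of 1, while that share over all regions went from 7.42% to 22.3%. Windows 50 kb narrower held 0 new regions of 20 at 6 h (0%), because the single one lies 6.87 kb inside the limit. Scaled by the summed pileups of shared regions, the median ratio at 6 h was 0.773, with 1.05 over all regions. For the score of 1000 the cause was not tested. Of the values for both windows 8 moved beyond their interval and 39 did not, and for single windows 12 and 82. For this count the interval of a share was its Wilson interval, and that of a median ratio was the middle 50% of its regions. No paired analysis was possible because the replicates of a group stand in a single list, and so no replicate could be left out. With 19 and 20 regions per window, shares are known only within wide intervals, and weak regions lie near the limit of the shallower 6 h list.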
